A study of Mus musculus with 12 samples.

Results

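Immediate early genes and heat shock genes were examined in bulk RNA sequencing of epithelial cells that had been sorted from mouse gallbladder and proximal small intestine. The set holds 51 genes, chosen by symbol as textbook stimulus-response genes, 41 of them immediate early genes and 10 heat shock genes. Each symbol matched 1 row among the 43432 genes of the deposited count table. A minimum count removed 1 gene, the phosphatase gene Dusp2, so 50 genes were tested. All mice carried the Flare25 allele, with which cells that transcribe Il25 also make a red fluorescent protein. Live single EpCAM+ cells were sorted by that fluorescence into IL-25+ and IL-25- cells, and in gut epithelium IL-25+ cells are mainly tuft cells, rare chemosensory cells. The 4 groups were gallbladder IL-25+ (GB-pos), gallbladder IL-25- (GB-neg), small intestine IL-25+ (SI-pos) and small intestine IL-25- (SI-neg), with 3 libraries each. The labels of the gallbladder libraries, and of no small intestine library, name a house dust mite extract coupled to a dye and given 1 day before collection, while the protocol text of every library calls the mice homeostatic. Tissue and allergen label therefore cannot be told apart. The labels used here do not say how many mice stand behind a library. The p-values reflect only how far libraries spread within groups, which may be technical. That spread is estimated over all 4 groups together, so libraries outside a comparison also bear on its p-value. The IL-25- gate is a mixture of the other epithelial cells of each tissue. In such bulk samples, fewer cells of a type and less RNA per cell cannot be told apart.

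Immediate early genes are transcribed within minutes of a stimulus, before any new protein is made, because their promoters are bound by factors that kinases switch on directly, such as SRF with its ELK partners and CREB. Many encode transcription factors (the FOS and JUN proteins that pair to form AP-1, the EGR zinc finger factors and the NR4A orphan receptors), and others encode the brakes of the response, among them the phosphatases of the DUSP family, the mRNA decay factor ZFP36 and the NF-kB inhibitor NFKBIA. In intestinal epithelium they respond to growth factors, to luminal and microbial signals and to injury, and the isolation of cells is itself a known stimulus. Heat shock genes encode chaperones and their helpers, which hold or refold damaged proteins and are switched on by the factor HSF1 through heat shock elements.

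Promoter sequence was available for 41 of the 51 genes, as RefSeq windows on GRCm38.p6 that run from 250 bases before to 50 bases after a gene's start. Both strands of each 300-base window were searched for the SRF site (the CArG box), the CREB site (CRE, TGACGTCA), the AP-1 site (TGANTCA) and the heat shock element (GAANNTTC). The letters of a CRE do not themselves hold those of an AP-1 site. The heat shock element was found in 6 of the 8 heat shock windows, in 2 of the 33 immediate early windows and in 7.95% of all 27025 windows. The CArG box was found in 2 immediate early windows, those of Zfp36 and Dusp5, and in 1.57% of all windows. The CRE was likewise found in 2, those of Dusp1 and Btg2, and in 1.88% of all windows. The AP-1 site was found in 1 immediate early window (Zfp36l1), in 1 heat shock window (Bag3) and in 7.93% of all windows. A match describes letters only, and a missing match says nothing about sites elsewhere or about sites in the window that depart from these letters.

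The windows below were chosen to show the motifs in members described further on: the mRNA decay factor Zfp36 (chr7:28379179-28379478, minus strand) and the phosphatase Dusp5 (chr19:53528895-53529194, plus strand) with CArG boxes, the phosphatase Dusp1 (chr17:26508423-26508722, minus strand) and the antiproliferative factor Btg2 (chr1:134079106-134079405, minus strand) with a CRE, the chaperonin partner Hspe1 (chr1:55087898-55088197, plus strand) with a heat shock element, and Fos (chr12:85473640-85473939, plus strand), whose window holds none of the 4 motifs. Each is printed 5′ to 3′ in the direction of the gene, with the motif in capitals.
Zfp36: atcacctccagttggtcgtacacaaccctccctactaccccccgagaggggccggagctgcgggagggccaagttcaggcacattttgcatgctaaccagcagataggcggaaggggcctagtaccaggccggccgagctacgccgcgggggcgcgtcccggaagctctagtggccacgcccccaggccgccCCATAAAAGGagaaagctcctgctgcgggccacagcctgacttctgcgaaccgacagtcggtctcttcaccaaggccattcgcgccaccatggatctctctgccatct
Dusp5: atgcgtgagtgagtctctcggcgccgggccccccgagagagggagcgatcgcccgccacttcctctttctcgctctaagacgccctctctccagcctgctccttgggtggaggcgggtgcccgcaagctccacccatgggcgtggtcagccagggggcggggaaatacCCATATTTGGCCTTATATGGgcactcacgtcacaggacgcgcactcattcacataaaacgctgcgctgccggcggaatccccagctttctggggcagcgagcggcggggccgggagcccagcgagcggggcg
Dusp1: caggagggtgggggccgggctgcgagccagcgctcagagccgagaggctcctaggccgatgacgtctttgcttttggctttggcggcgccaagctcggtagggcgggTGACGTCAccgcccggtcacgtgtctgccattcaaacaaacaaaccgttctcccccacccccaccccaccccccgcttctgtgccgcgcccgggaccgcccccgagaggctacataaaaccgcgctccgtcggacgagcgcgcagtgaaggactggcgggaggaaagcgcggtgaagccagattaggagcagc
Btg2: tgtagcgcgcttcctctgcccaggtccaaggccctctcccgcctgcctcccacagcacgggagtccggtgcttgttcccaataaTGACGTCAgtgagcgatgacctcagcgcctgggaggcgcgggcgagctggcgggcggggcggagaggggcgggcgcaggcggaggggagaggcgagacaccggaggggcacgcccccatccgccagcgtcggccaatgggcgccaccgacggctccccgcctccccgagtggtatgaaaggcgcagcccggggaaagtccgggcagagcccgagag
Hspe1: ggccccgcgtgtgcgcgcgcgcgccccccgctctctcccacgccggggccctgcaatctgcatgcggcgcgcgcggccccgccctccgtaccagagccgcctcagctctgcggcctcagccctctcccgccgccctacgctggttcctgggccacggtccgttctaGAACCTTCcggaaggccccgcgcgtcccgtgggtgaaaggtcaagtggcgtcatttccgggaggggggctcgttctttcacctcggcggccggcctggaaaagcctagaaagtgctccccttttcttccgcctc
Fos: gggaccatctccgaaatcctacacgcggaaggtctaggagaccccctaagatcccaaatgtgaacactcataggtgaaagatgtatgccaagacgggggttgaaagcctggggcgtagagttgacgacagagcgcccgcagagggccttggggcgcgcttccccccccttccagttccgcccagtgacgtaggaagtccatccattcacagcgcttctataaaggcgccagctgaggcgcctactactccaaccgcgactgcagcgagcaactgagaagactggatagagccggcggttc
Counted from the RefSeq start that sets the window, the motif begins at base -58 in Zfp36, at -82 and -72 in Dusp5, at -143 in Dusp1, at -166 in Btg2 and at -84 in Hspe1. For Zfp36 and Dusp1 that start lies inside the gene coordinates given further on, which come from GENCODE M21.

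Library totals ran from 23703449 to 64736650 counts. Levels are given as CPM (read counts scaled to a common library total), and as CPM per kb of exon length where genes are compared with each other. The check of the sort was the reporter's own gene: the libraries held 220, 324 and 257 Il25 reads in GB-pos, against 48, 1 and 0 in GB-neg, and 169, 454 and 359 in SI-pos, against 0, 1 and 2 in SI-neg. All 15 tuft cell markers were higher in IL-25+ cells of both tissues, and the 5 epithelial markers were present in all groups. GB-neg 1 stands apart: besides its 48 Il25 counts, its 12 enterocyte markers summed to 1694 CPM, against 402 and 313 CPM in GB-neg 2 and 3. SI-neg 3 held 1887 CPM of the 9 gallbladder markers, against 1759 and 1204 CPM in SI-neg 1 and 2, so these markers did not set it clearly apart. SI-neg 2 held 48624 CPM of the 7 goblet markers, against 13782 and 4590 CPM in SI-neg 1 and 3. Results were also computed without GB-neg 1 and SI-neg 3. Mitochondrially encoded genes took 7.13 to 8.83% of counts in GB-pos, 11.2 to 25% in GB-neg, 12.1 to 17.2% in SI-pos and 26.6 to 34.9% in SI-neg. GB-neg 3 departed from its group in other ways. Its mitochondrial share was 25%, against 11.2 and 14.2% in GB-neg 1 and 2, and 16683 genes were detected in it, against 21963 and 19005.

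The 41 immediate early genes together took 0.73, 0.683 and 0.792% of all counts in GB-pos 1 to 3, against 3.08, 2.72 and 3.49% in GB-neg 1 to 3. They took 0.294, 0.36 and 0.37% in SI-pos 1 to 3, against 0.476, 0.388 and 0.334% in SI-neg 1 to 3. The gallbladder IL-25- libraries thus lay above all others, the gallbladder IL-25+ libraries came next, and the small intestine gates overlapped. The 10 heat shock genes took far less and did not follow that order: 0.072, 0.097 and 0.112% in GB-pos, against 0.116, 0.149 and 0.152% in GB-neg, and 0.0611, 0.0848 and 0.0501% in SI-pos, against 0.142, 0.0667 and 0.0956% in SI-neg. In the heat shock sum the gallbladder gates did not overlap and the small intestine gates did. A few genes made up much of the immediate early sum. Zfp36 held 26.2, 29.2 and 19.3% of it in GB-neg 1 to 3. Egr1 held 21.2, 19.6 and 22% there, and Dusp1 13.4, 10.6 and 24.3%. In SI-pos 1 to 3 Zfp36 held 28.7, 34 and 34.5%, and in SI-neg 1 to 3 it held 15.5, 18.7 and 19.6%. The totals include mitochondrial reads, which took 17.2, 17.2 and 12.1% in SI-pos 1 to 3, against 26.6, 34.9 and 27.1% in SI-neg 1 to 3. The overlap of the small intestine gates in the immediate early sum holds for shares of all counts only. As shares of the remaining counts, SI-neg lay above SI-pos without overlap. For the heat shock sum the overlap was not tested without mitochondrial reads.

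**Figure D1:**
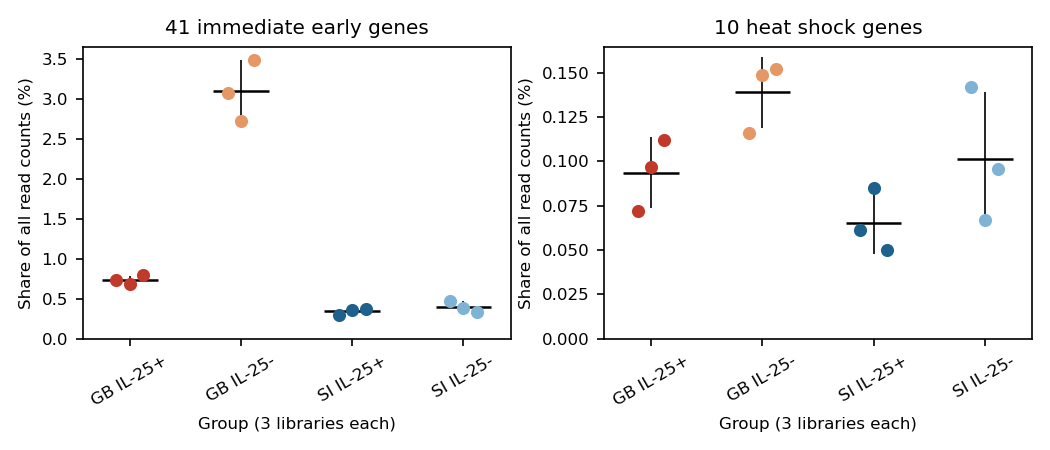
Share of all read counts in percent (vertical axis, from 0) taken by the 41 immediate early genes and by the 10 heat shock genes in each group (horizontal axis, 3 libraries per group, points are libraries, the line and bar are mean and SD). The GB-neg libraries sit between 2.72 and 3.49% for immediate early genes, above the 0.683 to 0.792% of GB-pos and at most 0.476% in the small intestine.

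Per kb of exon, 3 immediate early genes were among the 20 most abundant transcripts of gallbladder IL-25- cells: Zfp36 at rank 13 (mean 2184 CPM per kb), Dusp1 at rank 15 (1557 CPM per kb) and Egr1 at rank 16 (1453 CPM per kb). Fos at rank 30 and Jun at rank 40 followed, and 8 members stood in the top 100 and 30 in the top 1000. In GB-pos the top 100 held 2 members, Zfp36 at rank 47 (452 CPM per kb) and Egr1 at rank 80 (298 CPM per kb). In SI-pos it held 1, Zfp36 at rank 94 (321 CPM per kb), and in SI-neg it held 0, with Zfp36 at rank 108 (204 CPM per kb). Zfp36 was the most abundant member per kb in each of the 4 groups.

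**Figure D2:**
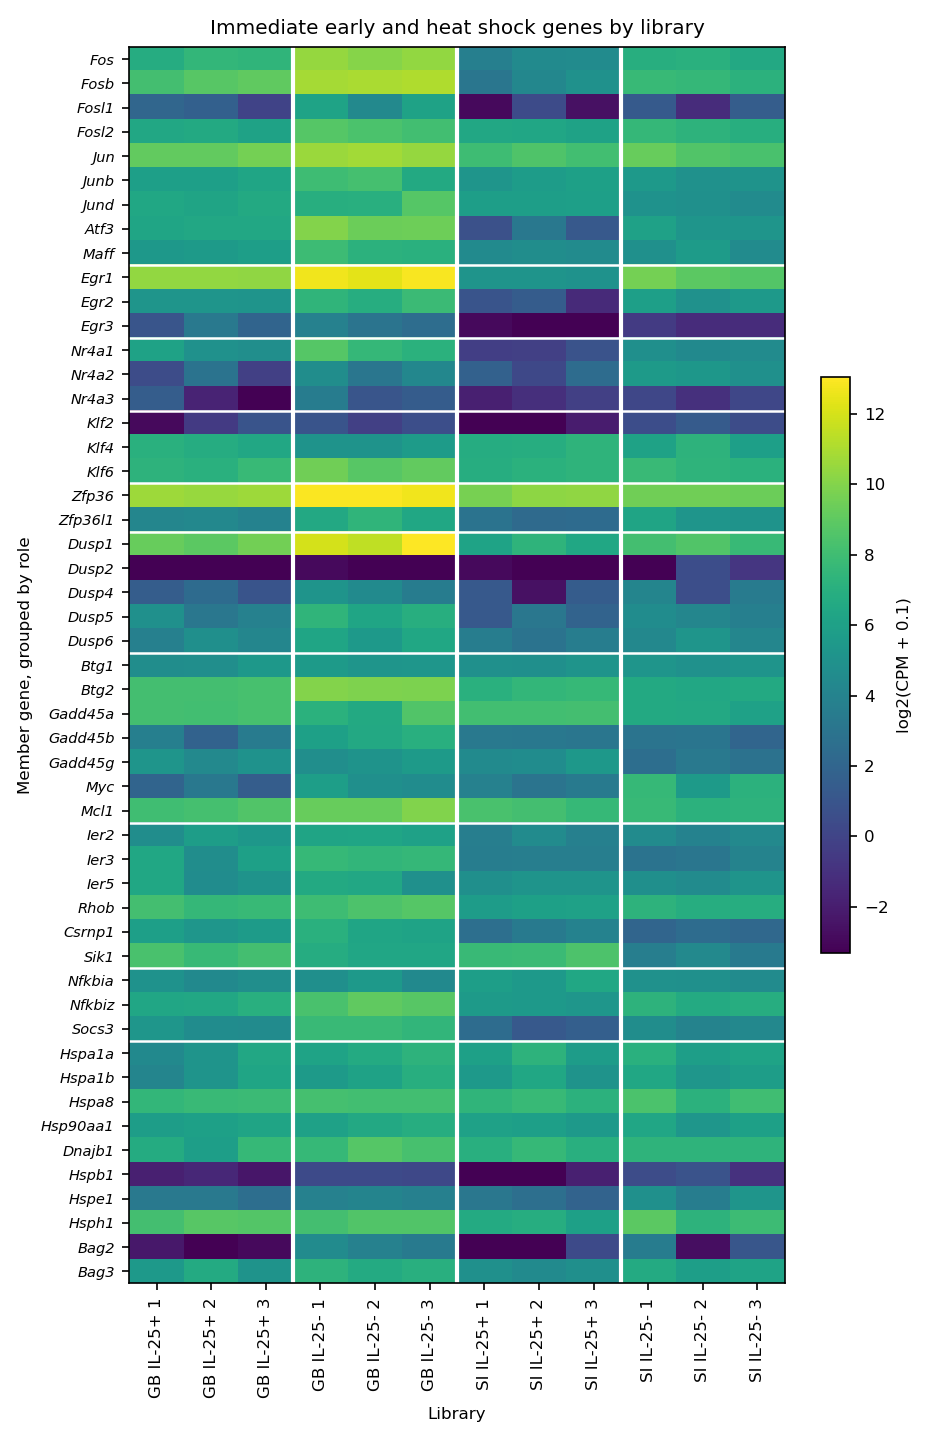
Level of each member as log2(CPM + 0.1) (colour scale) by library (horizontal axis, the 4 groups in turn, 3 libraries each) with the genes grouped by role (vertical axis). The GB-neg columns hold the highest values for most immediate early genes, and 30 members were called higher in GB-neg than in SI-neg.

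In the gallbladder, IL-25+ cells held less of most immediate early transcripts than IL-25- cells. Of the 50 genes tested, 33 were lower and 2 higher in IL-25+ cells, where 14.4% of all 16636 genes tested were lower and 12.4% higher. Here and below a gene is called at an adjusted p under 0.05 in edgeR's quasi-likelihood test, with Benjamini-Hochberg adjustment over all genes tested. The median log2 fold change was -1.94 over the members and -0.15 over all genes. The 3 libraries of each gate did not overlap for 34 members that were lower and 2 that were higher, where 18.5% and 21.3% of all genes did so. Of the 35 calls, 25 held under every one of 22 alternatives. A call is said to end without a library where the fit that left out that 1 library gave an adjusted p of 0.05 or more.

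In the small intestine the gates divided the members. Of the same 50 genes, 19 were lower and 8 higher in IL-25+ cells, where 12.8% of all genes were lower and 14.5% higher, and the median log2 fold change was -0.75 over the members and -0.07 over all genes. The gates did not overlap for 22 members that were lower and 9 that were higher, against 25.5% and 21.5% of all genes. The members' share of higher calls was near that of all genes. Of the 27 calls, 18 held under every alternative that gave a value, 21 or 22 of them per gene. Both tissues called 15 members lower, and 4 genes were called higher in small intestine IL-25+ cells and lower in gallbladder IL-25+ cells (Zfp36, Btg2, Mcl1 and Csrnp1). One gene, Sik1, was called higher in both, and 8 genes were called in neither. Of all 16636 genes, 5.87% were called lower in both tissues and 0.673% higher in small intestine and lower in gallbladder, while 7.07% were called higher in both and 60.1% in neither.

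The difference between the tissues in the gate effect was tested as the gallbladder log2 fold change minus the small intestine one. It passed for 14 of the 50 members, 13 of them lower in the gallbladder than in the small intestine and 1 higher, where 5.6% of all genes were lower and 3.63% higher, or 9.23% in either direction. The members' median was -1.07, against -0.11 for all genes. Of the 14 calls, 11 held under each of the 21 alternatives that can give an interaction. An unadjusted p under 0.05 was reached by 24 members, and by 23.3% of all genes.

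**Figure D3:**
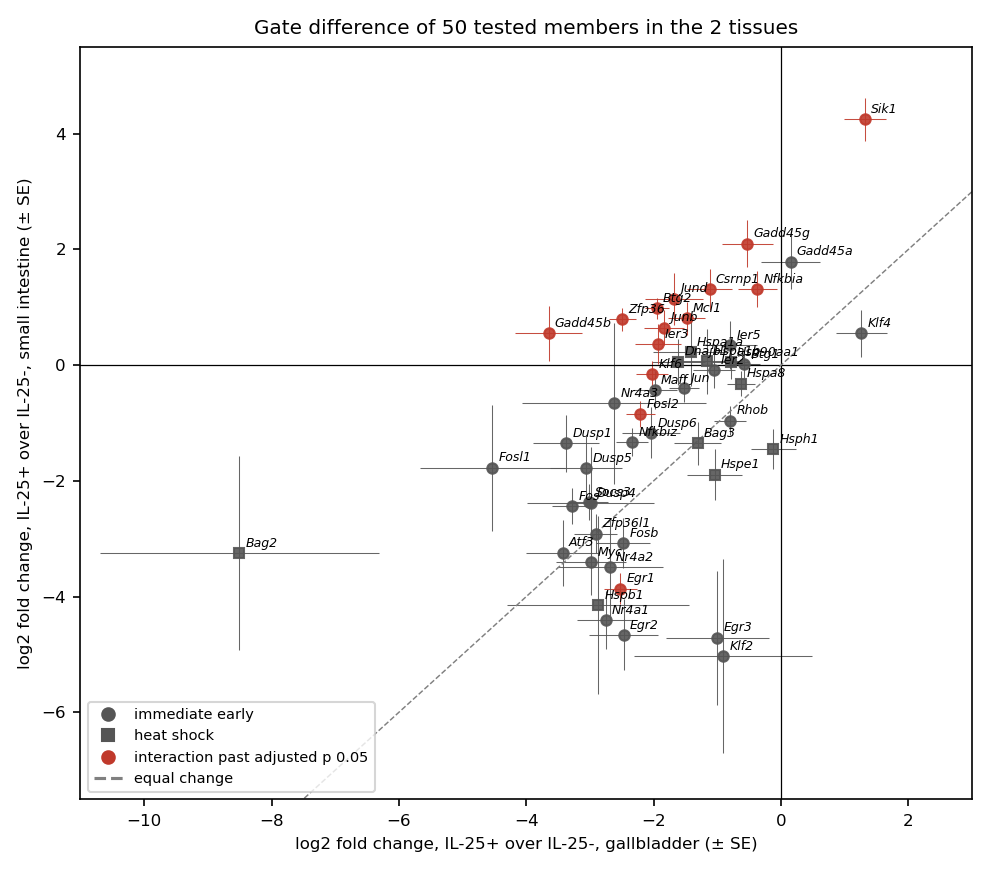
Log2 fold change of IL-25+ over IL-25- cells in gallbladder (horizontal axis) and in small intestine (vertical axis) for the 50 tested members, with standard errors, circles for immediate early and squares for heat shock genes. Genes in red passed the interaction test: 13 of them lie above the line of equal change, with Sik1 farthest up, at 1.32 in gallbladder and 4.25 in small intestine, and Egr1 lies below it.

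Between tissues, gallbladder IL-25- cells held more of most members than small intestine IL-25- cells. Among IL-25- cells 30 of the 50 members were higher and 2 lower in gallbladder, where 13% of all genes were higher and 11.7% lower, with a median of 1.77 over the members and -0.03 over all genes. Among IL-25+ cells 15 were higher and 1 lower, where 10.5% of all genes were higher and 13.1% lower, with a median of 0.53 over the members and -0.09 over all genes. The tissues did not overlap for 34 members higher and 2 lower among IL-25- cells (22.9% and 18.2% of all genes), and for 24 higher and 1 lower among IL-25+ cells (28.1% and 15.8% of all genes). In both gates 14 members were called higher, and a further 16 were called higher among IL-25- cells and not among IL-25+ cells, where 5.03% and 7.95% of all genes did so. Library size scaling by TMM (a trimmed mean over genes) matters here, since its factors were 0.84 to 0.894 in SI-pos and 1.137 to 1.214 in GB-pos, so a fitted log2 difference among IL-25+ cells lies below the log2 ratio of CPM values, which makes it smaller in size for genes higher in gallbladder and larger in size for genes lower there.

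**Figure D4:**
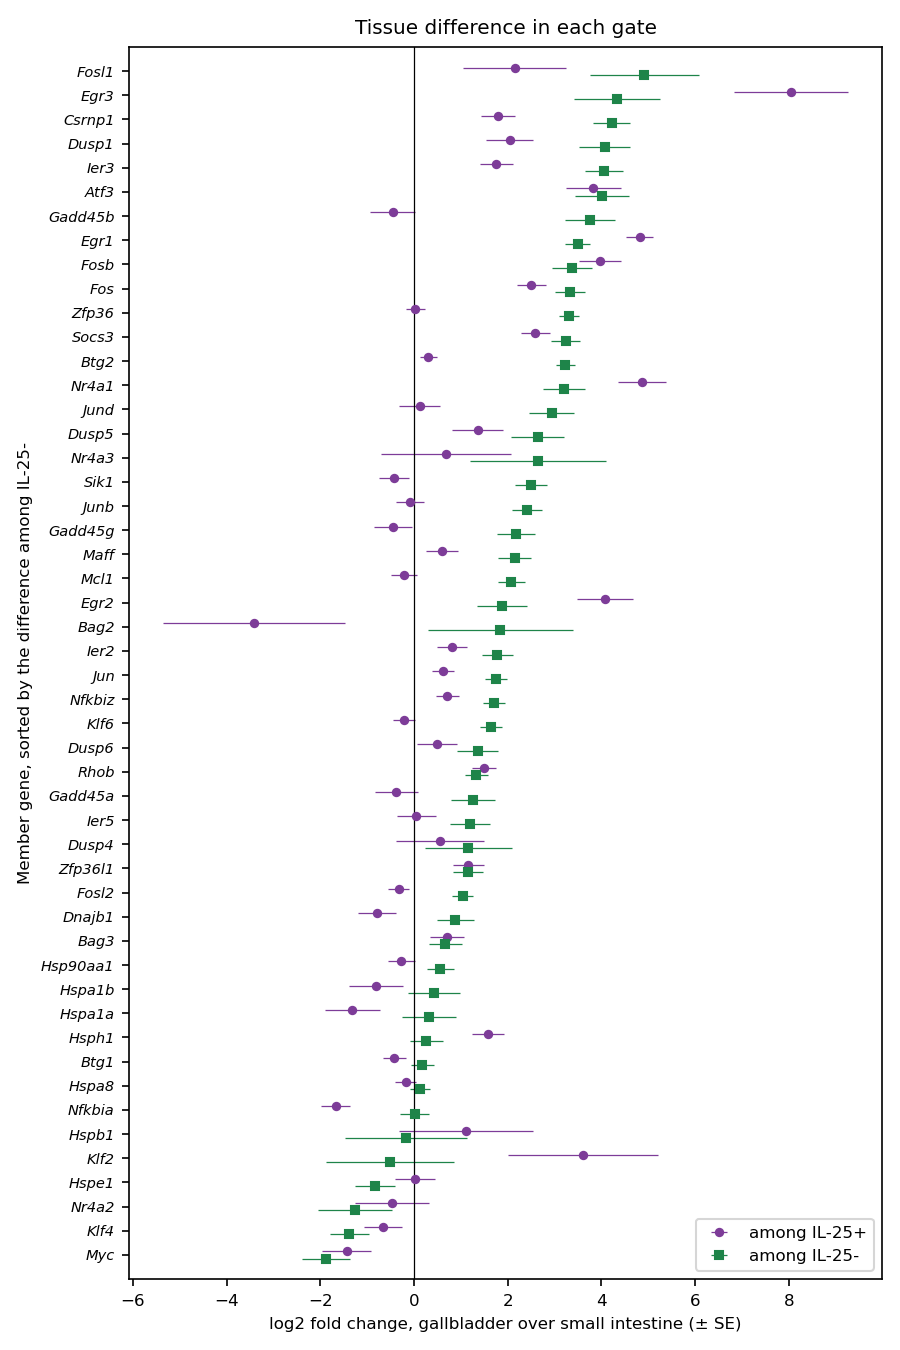
Log2 fold change of gallbladder over small intestine (horizontal axis, with standard errors) for each tested member (vertical axis, sorted by the value among IL-25- cells), with circles for IL-25+ and squares for IL-25- cells. Zfp36 and Btg2 sit near 0 among IL-25+ cells (0.03 and 0.30) and at 3.31 and 3.23 among IL-25- cells, while Egr1 is at 4.82 and 3.49.

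Every one of the 9 AP-1 family genes was called lower in gallbladder IL-25+ cells and every one was called higher in gallbladder than in small intestine IL-25- cells. Fos had 113, 179 and 168 CPM in GB-pos 1 to 3, against 1414, 1058 and 1349 CPM in GB-neg 1 to 3. Small intestine Fos was 13.5, 22.2 and 23.7 CPM in SI-pos 1 to 3, against 125, 134 and 94 CPM in SI-neg 1 to 3. Fos (ENSMUSG00000021250, chromosome 12, 85473890 to 85477273, here and below on GRCm38), the founding AP-1 subunit, was thus lowest in SI-pos and highest in GB-neg, and no pair of compared groups overlapped. Its log2 fold change was -3.28 ± 0.32 (adjusted p = 7.89e-06) for the gate in gallbladder and -2.44 ± 0.31 (adjusted p = 7.36e-05) in small intestine. Fos was higher in gallbladder than in small intestine, with a log2 change of 2.50 ± 0.31 (adjusted p = 9.07e-05) among IL-25+ cells and of 3.33 ± 0.32 (adjusted p = 1.3e-05) among IL-25- cells. Fosb had 286, 445 and 531 CPM in GB-pos 1 to 3, against 1830, 1987 and 2196 CPM in GB-neg 1 to 3. Small intestine Fosb was 8.46, 18.9 and 31.5 CPM in SI-pos 1 to 3, against 207, 190 and 149 CPM in SI-neg 1 to 3. Its close relative Fosb thus had the same order of groups. Its gate log2 fold changes were -2.48 ± 0.42 (adjusted p = 0.000804) in gallbladder and -3.08 ± 0.43 (adjusted p = 0.000208) in small intestine. By tissue, Fosb had log2 fold changes of 3.97 ± 0.44 (adjusted p = 5.8e-05) and 3.37 ± 0.43 (adjusted p = 0.000159) among IL-25+ and IL-25- cells. Neither passed the interaction (-0.83 for Fos, adjusted p = 0.245, and 0.60 for Fosb, adjusted p = 0.593).

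The stress-induced factor Atf3 was called lower in IL-25+ cells of both tissues, with log2 fold changes of -3.43 ± 0.57 (adjusted p = 0.00101) in gallbladder and -3.24 ± 0.57 (adjusted p = 0.00154) in small intestine. Its mean was 85.8 ± 6.58 CPM in GB-pos, against 802 ± 196 CPM in GB-neg, and 4.35 ± 4.21 CPM in SI-pos, against 46.8 ± 17.1 CPM in SI-neg (SD, n = 3 each). Fosl2 had 89.9, 98.5 and 68.4 CPM in GB-pos 1 to 3, against 427, 333 and 276 CPM in GB-neg 1 to 3. Small intestine Fosl2 was 88.4, 80.6 and 68.7 CPM in SI-pos 1 to 3, against 188, 156 and 121 CPM in SI-neg 1 to 3. Fosl2, a longer-lived FOS relative, was lower in IL-25+ cells, with a log2 change of -2.21 ± 0.23 (adjusted p = 1.65e-05) in gallbladder and of -0.84 ± 0.22 (adjusted p = 0.0141) in small intestine. The Fosl2 interaction was -1.37 ± 0.32 (adjusted p = 0.0153). The small intestine call for Fosl2 ended without SI-pos 3 or SI-neg 1 or 2 (adjusted p = 0.0508 to 0.0668, with 0.00128 to 0.0668 over its alternatives). The Fosl2 interaction reached adjusted p = 0.0605 without GB-neg 1 and SI-neg 3 together.

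All 3 JUN genes, whose products dimerise with FOS proteins, were called lower in gallbladder IL-25+ cells. Junb had 60.4, 60.8 and 79.9 CPM in GB-pos 1 to 3, against 251, 292 and 97.8 CPM in GB-neg 1 to 3. Small intestine Junb was 37.2, 53.6 and 63.9 CPM in SI-pos 1 to 3, against 44.3, 31.3 and 34 CPM in SI-neg 1 to 3. The Junb gates did not overlap in gallbladder and overlapped in small intestine. Junb had a log2 change of -1.84 ± 0.31 (adjusted p = 0.000762) in gallbladder and 0.65 ± 0.30 (adjusted p = 0.13) in small intestine, with an interaction of -2.49 ± 0.43 (adjusted p = 0.00304). Jund had 87.1, 75.6 and 97.3 CPM in GB-pos 1 to 3, against 125, 127 and 416 CPM in GB-neg 1 to 3. Small intestine Jund was 56.5, 57.2 and 61.2 CPM in SI-pos 1 to 3, against 32.7, 30.3 and 23.4 CPM in SI-neg 1 to 3. The GB-neg 3 value of Jund was more than the sum of the other GB-neg values. Jund had a log2 change of -1.68 ± 0.46 (adjusted p = 0.0162) in gallbladder, 1.15 ± 0.45 (adjusted p = 0.0781) in small intestine and -2.82 ± 0.64 (adjusted p = 0.0153) in the interaction. Without GB-neg 3 these Jund values were -0.66 for the gallbladder gate and -1.81 for the interaction, and the tissue difference among IL-25- cells was 1.93, against 2.94 with it. The gallbladder gate call of Jund ended without GB-pos 1 or 2 or GB-neg 3 (adjusted p = 0.0553 to 0.0594, with 0.0034 to 0.0594 over its alternatives). An antisense gene shares 48.3% of Jund's 50-base stretches, so the Jund counts are uncertain. No read was counted to that gene, but with the read counter unknown this cannot tell the genes apart. Jun had a log2 change of -1.52 ± 0.24 (adjusted p = 0.000491) in gallbladder and -0.40 ± 0.24 (adjusted p = 0.24) in small intestine. The small MAF partner Maff had log2 fold changes of -1.98 ± 0.35 (adjusted p = 0.000903) in gallbladder and -0.43 ± 0.33 (adjusted p = 0.369) in small intestine, and for Fosl1 these were -4.53 ± 1.14 (adjusted p = 0.0122) and -1.77 ± 1.09 (adjusted p = 0.259). The gallbladder call of Fosl1 had an adjusted p of 0.0628 with the replicate block nested in tissue. Fosl1 is uncertain, since 52.6% of its 50-base stretches are shared with a gene on the opposite strand.

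**Figure D5:**
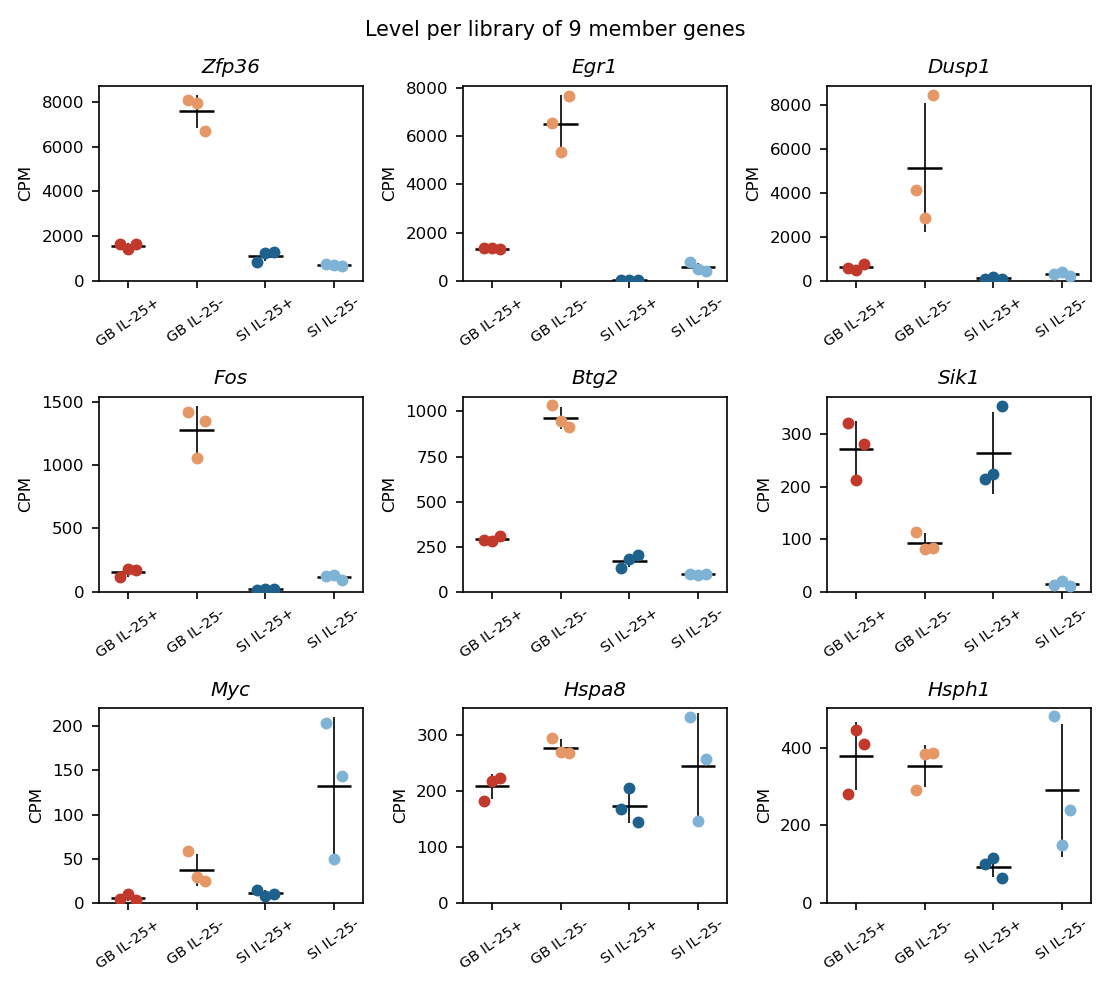
CPM in each library (vertical axes, from 0) of 9 members by group (horizontal axes, gallbladder left of small intestine, points are libraries, the line and bar are mean and SD, n = 3). Zfp36, Egr1, Dusp1, Fos and Btg2 peak in GB-neg, Sik1 is higher in IL-25+ cells of both tissues, and Myc is highest in SI-neg. Hspa8 differs less between groups, with its highest mean in GB-neg (278 CPM, against 246 CPM in SI-neg), and Hsph1 is lowest in SI-pos.

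The EGR factors, zinc finger proteins downstream of ERK signalling, were all called lower in small intestine IL-25+ cells and all called higher in gallbladder in both gates. Egr1 had 1358, 1345 and 1309 CPM in GB-pos 1 to 3, against 6544, 5319 and 7678 CPM in GB-neg 1 to 3. Small intestine Egr1 was 35.3, 35.2 and 33.1 CPM in SI-pos 1 to 3, against 781, 478 and 411 CPM in SI-neg 1 to 3. Egr1 (ENSMUSG00000038418, chromosome 18, 34859823 to 34864984) varied by little between the SI-pos libraries and was lower there than in any other group. Its gate log2 fold change was -2.52 ± 0.26 (adjusted p = 1.36e-05) in gallbladder and -3.86 ± 0.27 (adjusted p = 6.34e-07) in small intestine. The Egr1 tissue log2 difference was 4.82 ± 0.29 (adjusted p = 6.91e-07) among IL-25+ cells and 3.49 ± 0.27 (adjusted p = 3.77e-06) among IL-25- cells. Egr1 was the member with a higher interaction, 1.34 ± 0.35 (adjusted p = 0.0292). The Egr1 interaction ended as a call without GB-pos 1, 2 or 3 or GB-neg 1 or 2 or SI-pos 1, 2 or 3 or SI-neg 1 (adjusted p = 0.0515 to 0.0758, with 0.00553 to 0.0758 over its alternatives).

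Egr2 had 37.1, 37.4 and 35.4 CPM in GB-pos 1 to 3, against 167, 115 and 228 CPM in GB-neg 1 to 3. Small intestine Egr2 was 1.82, 2.66 and 0.28 CPM in SI-pos 1 to 3, against 61.4, 31.2 and 44.2 CPM in SI-neg 1 to 3. Egr2 followed Egr1 at a lower level, with gate values of -2.47 ± 0.54 (adjusted p = 0.00504) in gallbladder and -4.66 ± 0.61 (adjusted p = 0.000147) in small intestine. Its tissue log2 difference was 4.07 ± 0.60 (adjusted p = 0.000441) among IL-25+ and 1.88 ± 0.53 (adjusted p = 0.0222) among IL-25- cells. The second Egr2 call ended without GB-neg 3 or SI-neg 2 or 3 (adjusted p = 0.0726 to 0.0872, with 0.000504 to 0.0872 over its alternatives). Egr3 had 1.87, 9.75 and 3.75 CPM in GB-pos 1 to 3, against 14.4, 7.67 and 5.61 CPM in GB-neg 1 to 3. Small intestine Egr3 was 0.0337, 0 and 0 CPM in SI-pos 1 to 3, against 0.61, 0.326 and 0.318 CPM in SI-neg 1 to 3. SI-pos held a single read of Egr3 in all, against 44 in SI-neg, a ratio of 0.0277 (95% interval 0.000687 to 0.163, counting error only) with an adjusted p of 0.00896. The 400 reads of GB-pos against that 1 read gave a ratio of 424 (interval 75.6 to 16769, adjusted p = 0.000425). Between gallbladder gates Egr3 had a log2 change of -1.0 ± 0.81 (adjusted p = 0.389), and its libraries overlapped. The gallbladder excess of Egr3 among IL-25- cells (4.34, adjusted p = 0.00423) had an adjusted p of 0.0584 without GB-neg 1 and SI-neg 3.

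Of the NR4A receptors, nuclear receptors regulated mainly by their abundance, Nr4a1 and Nr4a2 were called lower in IL-25+ cells of both tissues. Nr4a1 had 68.8, 30.6 and 27.4 CPM in GB-pos 1 to 3, against 420, 191 and 139 CPM in GB-neg 1 to 3. Small intestine Nr4a1 was 0.708, 0.741 and 1.72 CPM in SI-pos 1 to 3, against 28.7, 22 and 24 CPM in SI-neg 1 to 3. Nr4a1 was nearly absent from SI-pos and its groups did not overlap within any comparison. It had a log2 change of -2.75 ± 0.45 (adjusted p = 0.000576) in gallbladder and -4.41 ± 0.50 (adjusted p = 3.32e-05) in small intestine. Gallbladder Nr4a1 was higher, with a log2 change of 4.86 ± 0.51 (adjusted p = 2.9e-05) among IL-25+ and of 3.2 ± 0.45 (adjusted p = 0.000287) among IL-25- cells. Nr4a2 had a log2 change of -2.69 ± 0.83 (adjusted p = 0.0293) in gallbladder and -3.49 ± 0.85 (adjusted p = 0.00915) in small intestine. It had tissue values of -0.46 and -1.26 that did not pass. Its gallbladder call ended without GB-pos 1 or 3 or GB-neg 1 or 3 (adjusted p = 0.0645 to 0.101, with 0.00138 to 0.101 over its alternatives). Without GB-pos 2 the Nr4a2 log2 fold change was -4.39. Nr4a3 did not pass in any of the 5 tests.

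The KLF factors differed from one another. Klf6 had 154, 132 and 209 CPM in GB-pos 1 to 3, against 707, 447 and 562 CPM in GB-neg 1 to 3. Small intestine Klf6 was 120, 139 and 158 CPM in SI-pos 1 to 3, against 217, 157 and 142 CPM in SI-neg 1 to 3. Klf6, a broadly expressed early growth response factor, separated GB-neg from the rest, with -2.02 ± 0.25 (adjusted p = 5.7e-05) in gallbladder and -0.16 ± 0.24 (adjusted p = 0.651) in small intestine. Klf6 had an interaction of -1.86 ± 0.34 (adjusted p = 0.00396). Klf4, a factor of postmitotic gut epithelium, was one of the 2 members higher in gallbladder IL-25+ cells. It averaged 113 ± 21.1 CPM in GB-pos, against 39.4 ± 9.22 CPM in GB-neg, and 130 ± 27.9 CPM in SI-pos, against 93.1 ± 50.4 CPM in SI-neg. Its gallbladder gate log2 value was 1.26 ± 0.40 (adjusted p = 0.0347), and the call ended without GB-pos 1 or 2 or GB-neg 1 or 2 (adjusted p = 0.0813 to 0.115, with 0.00433 to 0.115 over its alternatives). Among IL-25- cells Klf4 was lower in gallbladder, with a log2 change of -1.38 ± 0.41 (adjusted p = 0.0255). This tissue call of Klf4 ended without GB-neg 1 or 2 or SI-neg 2 (adjusted p = 0.0876 to 0.157, with 0.0136 to 0.157 over its alternatives), and the value was -0.64 without SI-neg 2. Klf2 was rare, with 4 reads in SI-pos against 185 in SI-neg (ratio 0.0264, interval 0.00712 to 0.0687). That Klf2 call (adjusted p = 0.0408) ended without GB-neg 1, 2 or 3 or SI-pos 1 or 2 or SI-neg 1, 2 or 3 (adjusted p = 0.0514 to 0.127, with 0.000834 to 0.127 over its alternatives). Its fitted log2 value was -5.03, or -9.04 without SI-pos 3.

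Both mRNA decay factors, which bind AU-rich elements and shorten the life of many early transcripts, were lower in gallbladder IL-25+ cells, and they parted in the small intestine. Zfp36 had 1627, 1437 and 1637 CPM in GB-pos 1 to 3, against 8083, 7939 and 6715 CPM in GB-neg 1 to 3. Small intestine Zfp36 was 843, 1223 and 1278 CPM in SI-pos 1 to 3, against 739, 725 and 655 CPM in SI-neg 1 to 3. Zfp36 (ENSMUSG00000044786, chromosome 7, 28376784 to 28380253) was thus higher in SI-pos than in SI-neg and several times higher in GB-neg than anywhere else, without overlap in either. The gate log2 difference was -2.49 ± 0.21 (adjusted p = 2.65e-06) in gallbladder and 0.79 ± 0.20 (adjusted p = 0.00947) in small intestine. The Zfp36 interaction was -3.28 ± 0.28 (adjusted p = 3.32e-05), the lowest adjusted p of any member there. Between tissues Zfp36 had a log2 change of 0.03 ± 0.20 (adjusted p = 0.93) among IL-25+ cells, although the CPM values did not overlap, and 3.31 ± 0.21 (adjusted p = 1.03e-06) among IL-25- cells. The small intestine gate call had an adjusted p of 0.0557 without GB-neg 1 and SI-neg 3. Zfp36l1 had 18, 20.3 and 15 CPM in GB-pos 1 to 3, against 95.2, 167 and 87.3 CPM in GB-neg 1 to 3. Small intestine Zfp36l1 was 7.42, 4.91 and 5.18 CPM in SI-pos 1 to 3, against 75.6, 36.7 and 34.5 CPM in SI-neg 1 to 3. Zfp36l1 was lower in IL-25+ cells of both tissues, with log2 fold changes of -2.91 ± 0.34 (adjusted p = 4.29e-05) in gallbladder and -2.91 ± 0.34 (adjusted p = 4.56e-05) in small intestine. The Zfp36l1 interaction was 0.00 ± 0.41 (adjusted p = 1). It shares 54.4% of its 50-base stretches with a non-coding gene on the opposite strand that held 57 reads over all 12 libraries. The tissue differences of Zfp36l1 were 1.16 ± 0.33 (adjusted p = 0.0203) among IL-25+ and 1.16 ± 0.32 (adjusted p = 0.019) among IL-25- cells. The first ended as a call without GB-pos 2 or SI-pos 2 or 3 (adjusted p = 0.06 to 0.0787, with 0.00252 to 0.163 over its alternatives). The second ended without GB-neg 2 or SI-neg 2 or 3 (adjusted p = 0.0636 to 0.0856, with 0.00117 to 0.0856 over its alternatives).

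All 4 tested dual specificity phosphatases, which switch off MAP kinases, were lower in gallbladder IL-25+ cells. Dusp1 had 596, 491 and 744 CPM in GB-pos 1 to 3, against 4127, 2881 and 8459 CPM in GB-neg 1 to 3. Small intestine Dusp1 was 73.3, 160 and 87.1 CPM in SI-pos 1 to 3, against 287, 388 and 207 CPM in SI-neg 1 to 3. GB-neg 3 held the highest Dusp1 value, and GB-neg lay above every other group. Dusp1 (ENSMUSG00000024190, chromosome 17, 26505590 to 26562128) had a log2 change of -3.37 ± 0.52 (adjusted p = 0.000608) in gallbladder and -1.35 ± 0.49 (adjusted p = 0.0594) in small intestine, where the libraries did not overlap but the test was not passed. Gallbladder was higher, with a log2 change of 2.04 ± 0.50 (adjusted p = 0.0113) among IL-25+ and of 4.07 ± 0.54 (adjusted p = 0.000275) among IL-25- cells. The IL-25+ tissue call of Dusp1 ended without SI-pos 1 or 3 (adjusted p = 0.0515 to 0.0538, with 0.000469 to 0.0538 over its alternatives). Dusp5, the ERK phosphatase whose window holds adjoining CArG boxes, had a log2 change of -3.06 ± 0.57 (adjusted p = 0.00156) in gallbladder and -1.78 ± 0.55 (adjusted p = 0.029) in small intestine. The second Dusp5 call ended without SI-pos 1 or 3 or SI-neg 1 or 2 (adjusted p = 0.071 to 0.111, with 0.00592 to 0.111 over its alternatives). Its tissue log2 difference was 1.36 ± 0.54 (adjusted p = 0.0881) among IL-25+ cells and 2.64 ± 0.56 (adjusted p = 0.0044) among IL-25- cells.

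The ERK phosphatase Dusp6 had a log2 change of -2.04 ± 0.45 (adjusted p = 0.0043) in gallbladder and -1.17 ± 0.44 (adjusted p = 0.0642) in small intestine. Among IL-25- cells Dusp6 was higher in gallbladder, with a log2 change of 1.36 ± 0.44 (adjusted p = 0.0366), and this tissue call ended without GB-neg 1 or 3 or SI-neg 1 or 3 (adjusted p = 0.06 to 0.141, with 0.00312 to 0.172 over its alternatives). Dusp4 had a log2 change of -2.99 ± 1.00 (adjusted p = 0.0412) in gallbladder and -2.39 ± 0.98 (adjusted p = 0.0882) in small intestine. The gallbladder call of Dusp4 ended without GB-pos 1, 2 or 3 or GB-neg 1 or 2 or SI-pos 1 or SI-neg 3 (adjusted p = 0.0533 to 0.125, with 0.00531 to 0.125 over its alternatives). Dusp2, the gene left out of the tests, had 0 reads in GB-pos, 2 in GB-neg, 1 in SI-pos and 69 in SI-neg, a small intestine ratio of 0.0177 (interval 0.000442 to 0.102).

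Among the 7 growth arrest, damage and survival genes, 4 were called higher in small intestine IL-25+ cells and 4 lower in gallbladder IL-25+ cells. Btg2 had 286, 281 and 307 CPM in GB-pos 1 to 3, against 1033, 947 and 915 CPM in GB-neg 1 to 3. Small intestine Btg2 was 132, 183 and 204 CPM in SI-pos 1 to 3, against 97.9, 91.7 and 100 CPM in SI-neg 1 to 3. Btg2, an antiproliferative p53 target (ENSMUSG00000020423, chromosome 1, 134075170 to 134079120), was thus lower in GB-pos than in GB-neg and higher in SI-pos than in SI-neg, without overlap in either tissue. The log2 fold changes were -1.95 ± 0.19 (adjusted p = 9.01e-06) in gallbladder and 0.98 ± 0.19 (adjusted p = 0.00165) in small intestine. Btg2 had an interaction of -2.93 ± 0.27 (adjusted p = 4.29e-05). Between tissues Btg2 had a log2 change of 0.30 ± 0.18 (adjusted p = 0.268) among IL-25+ cells and 3.23 ± 0.20 (adjusted p = 9.16e-07) among IL-25- cells, the lowest adjusted p of any member among IL-25- cells. Mcl1 had 261, 299 and 383 CPM in GB-pos 1 to 3, against 607, 617 and 980 CPM in GB-neg 1 to 3. Small intestine Mcl1 was 322, 280 and 200 CPM in SI-pos 1 to 3, against 208, 147 and 151 CPM in SI-neg 1 to 3. Mcl1, a short-lived inhibitor of apoptosis, had a log2 change of -1.48 ± 0.29 (adjusted p = 0.00183) in gallbladder and 0.81 ± 0.28 (adjusted p = 0.0477) in small intestine, where the libraries overlapped. Mcl1 had an interaction of -2.29 ± 0.40 (adjusted p = 0.00306). Its small intestine call ended without GB-pos 1, 2 or 3 or SI-pos 1 or 2 or SI-neg 1, 2 or 3 (adjusted p = 0.0527 to 0.162, with 0.00719 to 0.162 over its alternatives).

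The GADD45 proteins are small stress sensors that bind p38 and JNK pathway kinases and cell cycle proteins. Gadd45b had 13.3, 3.38 and 11 CPM in GB-pos 1 to 3, against 63.6, 95 and 129 CPM in GB-neg 1 to 3. Small intestine Gadd45b was 9.64, 9.19 and 8.55 CPM in SI-pos 1 to 3, against 7.93, 8.26 and 3.97 CPM in SI-neg 1 to 3. Gadd45b was lower in gallbladder IL-25+ cells, with a log2 change of -3.65 ± 0.52 (adjusted p = 0.000214) there and of 0.55 ± 0.48 (adjusted p = 0.428) in small intestine. Its interaction of -4.20 ± 0.70 (adjusted p = 0.00219) was the largest in size among the members that passed. Gadd45g had 37.6, 21.2 and 31.8 CPM in GB-pos 1 to 3, against 26.6, 33.6 and 48.3 CPM in GB-neg 1 to 3. Small intestine Gadd45g was 22.4, 25.2 and 42.3 CPM in SI-pos 1 to 3, against 5.86, 9.57 and 7.1 CPM in SI-neg 1 to 3. Gadd45g set SI-neg apart from the other groups instead, with log2 fold changes of -0.53 ± 0.40 (adjusted p = 0.355) in gallbladder and 2.10 ± 0.41 (adjusted p = 0.00216) in small intestine. Gadd45g had an interaction of -2.63 ± 0.57 (adjusted p = 0.011). Gadd45a had a log2 change of 0.15 ± 0.46 (adjusted p = 0.843) in gallbladder and of 1.79 ± 0.47 (adjusted p = 0.0152) in small intestine, where it was called higher. Its small intestine call ended without SI-neg 3 (adjusted p = 0.0648, with 6.71e-05 to 0.0648 over its alternatives).

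Myc, the growth factor-induced regulator of ribosome and metabolic genes, was, with Klf4, one of the 2 members called lower in gallbladder among IL-25- cells. It averaged 5.34 ± 3.64 CPM in GB-pos, against 37.3 ± 18.4 CPM in GB-neg, and 10.8 ± 3.46 CPM in SI-pos, against 132 ± 77.8 CPM in SI-neg. It was lower in IL-25+ cells, with a log2 change of -2.98 ± 0.55 (adjusted p = 0.00148) in gallbladder and of -3.41 ± 0.56 (adjusted p = 0.000634) in small intestine. Among IL-25- cells Myc was lower in gallbladder, with a log2 change of -1.88 ± 0.52 (adjusted p = 0.0194). The tissue groups overlapped, and that call ended without GB-neg 2 or 3 or SI-neg 1 (adjusted p = 0.0786 to 0.0836, with 3e-04 to 0.0836 over its alternatives). Btg1 passed none of the 5 tests.

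Sik1, a kinase induced by cAMP that restrains CREB-dependent transcription, was higher in IL-25+ cells of both tissues. Sik1 had 320, 213 and 281 CPM in GB-pos 1 to 3, against 114, 82.1 and 83.5 CPM in GB-neg 1 to 3. Small intestine Sik1 was 214, 224 and 353 CPM in SI-pos 1 to 3, against 12.9, 21.2 and 10.1 CPM in SI-neg 1 to 3. Sik1 (ENSMUSG00000024042, chromosome 17, 31844250 to 31855804) was lowest in SI-neg, and the libraries of the IL-25+ groups overlapped. The gate log2 difference was 1.32 ± 0.33 (adjusted p = 0.00944) in gallbladder and 4.25 ± 0.37 (adjusted p = 3.75e-06) in small intestine. Sik1 had an interaction of -2.92 ± 0.47 (adjusted p = 0.00178). Between tissues the Sik1 log2 fold change was -0.42 ± 0.32 (adjusted p = 0.386) among IL-25+ and 2.50 ± 0.34 (adjusted p = 0.000215) among IL-25- cells.

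Ier3 had 85.6, 26.4 and 62.8 CPM in GB-pos 1 to 3, against 203, 175 and 189 CPM in GB-neg 1 to 3. Small intestine Ier3 was 12, 12.6 and 12.7 CPM in SI-pos 1 to 3, against 7.57, 8.67 and 16.1 CPM in SI-neg 1 to 3. Ier3, a survival gene regulated by NF-kB and ERK, had a log2 change of -1.93 ± 0.36 (adjusted p = 0.00149) in gallbladder, 0.37 ± 0.35 (adjusted p = 0.479) in small intestine and -2.30 ± 0.50 (adjusted p = 0.0117) in the interaction. Gallbladder Ier3 was higher, with a log2 change of 1.76 ± 0.36 (adjusted p = 0.00342) among IL-25+ and of 4.06 ± 0.40 (adjusted p = 1.58e-05) among IL-25- cells. Csrnp1 had 61.4, 38.3 and 50.1 CPM in GB-pos 1 to 3, against 133, 79 and 71.7 CPM in GB-neg 1 to 3. Small intestine Csrnp1 was 6.07, 10.1 and 15.3 CPM in SI-pos 1 to 3, against 3.94, 5.3 and 4.55 CPM in SI-neg 1 to 3. Csrnp1, a nuclear protein first described as induced by axin, separated the tissues without overlap in both gates, with a log2 change of 1.79 ± 0.36 (adjusted p = 0.00317) among IL-25+ and of 4.22 ± 0.40 (adjusted p = 1.3e-05) among IL-25- cells. It was called in opposite directions by gate, -1.12 ± 0.35 (adjusted p = 0.0319) in gallbladder and 1.31 ± 0.36 (adjusted p = 0.0165) in small intestine. Csrnp1 had an interaction of -2.44 ± 0.51 (adjusted p = 0.00876). Its gallbladder gate call ended without GB-pos 2 or 3 or GB-neg 1 (adjusted p = 0.0728 to 0.121, with 0.00928 to 0.136 over its alternatives). The small intestine gate call of Csrnp1 ended without SI-pos 3 or SI-neg 1 or 3 (adjusted p = 0.0592 to 0.093, with 0.00501 to 0.093 over its alternatives).

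The small GTPase gene Rhob was lower in IL-25+ cells, with a log2 change of -0.80 ± 0.25 (adjusted p = 0.0299) in gallbladder, where the libraries overlapped, and of -0.96 ± 0.25 (adjusted p = 0.0124) in small intestine. The first Rhob call ended without GB-pos 2 or 3 or GB-neg 3 (adjusted p = 0.0899 to 0.132, with 0.00708 to 0.132 over its alternatives), and its value was -0.50 without GB-neg 3. The second Rhob call ended without SI-pos 1 (adjusted p = 0.0528, with 0.00305 to 0.0528 over its alternatives). Gallbladder Rhob was higher, with a log2 change of 1.49 ± 0.25 (adjusted p = 0.00104) among IL-25+ and of 1.33 ± 0.25 (adjusted p = 0.00207) among IL-25- cells. Ier2 had a log2 change of -1.05 ± 0.33 (adjusted p = 0.0302) in gallbladder and -0.08 ± 0.32 (adjusted p = 0.893) in small intestine. Its gallbladder call ended without GB-pos 1 or 3 or GB-neg 1, 2 or 3 (adjusted p = 0.0524 to 0.102, with 0.00896 to 0.102 over its alternatives), while Ier5 passed none of the 5 tests.

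The 3 feedback genes of NF-kB and cytokine signalling differed in direction in the small intestine, where 2 were lower and 1 was higher in IL-25+ cells. Socs3 had 39.5, 25.3 and 23.6 CPM in GB-pos 1 to 3, against 220, 222 and 178 CPM in GB-neg 1 to 3. Small intestine Socs3 was 5.46, 2.29 and 3.01 CPM in SI-pos 1 to 3, against 26.1, 16 and 19.5 CPM in SI-neg 1 to 3. Socs3, the inhibitor of JAK and STAT3 signalling, was lower in IL-25+ cells, with a log2 change of -3.02 ± 0.31 (adjusted p = 1.32e-05) in gallbladder and of -2.37 ± 0.31 (adjusted p = 9.42e-05) in small intestine. It was higher in gallbladder, with a log2 change of 2.59 ± 0.31 (adjusted p = 6.97e-05) among IL-25+ and of 3.24 ± 0.31 (adjusted p = 1.42e-05) among IL-25- cells. Nfkbiz had 80.6, 89.5 and 129 CPM in GB-pos 1 to 3, against 322, 531 and 441 CPM in GB-neg 1 to 3. Small intestine Nfkbiz was 48, 46.7 and 39.4 CPM in SI-pos 1 to 3, against 151, 105 and 119 CPM in SI-neg 1 to 3. Nfkbiz, which encodes the nuclear co-activator IkB-zeta, was likewise lower in IL-25+ cells, with a log2 change of -2.34 ± 0.25 (adjusted p = 1.65e-05) and -1.33 ± 0.24 (adjusted p = 0.00112) in gallbladder and small intestine. Its gallbladder excess was, in log2, 0.71 ± 0.24 (adjusted p = 0.0446) among IL-25+ and 1.71 ± 0.24 (adjusted p = 0.000248) among IL-25- cells. The first of these Nfkbiz calls ended without GB-pos 2 or 3 or SI-pos 1, 2 or 3 or SI-neg 1 or 2 (adjusted p = 0.0511 to 0.159, with 0.0177 to 0.159 over its alternatives).

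Nfkbia had 33, 22.1 and 27.5 CPM in GB-pos 1 to 3, against 28, 43.3 and 21.7 CPM in GB-neg 1 to 3. Small intestine Nfkbia was 58.3, 46.1 and 87 CPM in SI-pos 1 to 3, against 31.6, 29.2 and 23.3 CPM in SI-neg 1 to 3. Nfkbia, the NF-kB inhibitor IkB-alpha, was instead highest in SI-pos, which overlapped no other group. Its gate log2 fold change was -0.37 ± 0.30 (adjusted p = 0.398) in gallbladder and 1.31 ± 0.31 (adjusted p = 0.00655) in small intestine, where it was called higher. Nfkbia was the 1 member lower in gallbladder than in small intestine IL-25+ cells, with a log2 change of -1.67 ± 0.31 (adjusted p = 0.00179). Its interaction of -1.68 ± 0.43 (adjusted p = 0.0263) ended as a call without GB-pos 2 or GB-neg 2 or SI-pos 3 or SI-neg 1 or 3 (adjusted p = 0.0546 to 0.0804, with 0.0144 to 0.0915 over its alternatives).

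Of the 10 heat shock genes tested, 3 were lower in IL-25+ cells of each tissue and the other 7 did not pass, with medians of -1.24 in gallbladder and -0.83 in small intestine. Of all genes 14.4% and 12.8% were lower in the 2 tissues. Between tissues 1 of the 10 was called among IL-25+ cells, as higher in gallbladder, which is near the 10.5% of all genes. By edgeR 0 were called among IL-25- cells, with 1 at an unadjusted p under 0.05, against 24.6% and 36.3% of all genes. DESeq2 called 0 there and limma-voom 3. The edgeR interaction passed for 0, with 2 at an unadjusted p under 0.05, against 9.23% and 23.3% of all genes. For the interaction DESeq2 called 0 and limma-voom 2. Hspa8, the constitutive HSP70 of the cytosol, was 208 ± 22.5 CPM in GB-pos, against 278 ± 15.5 CPM in GB-neg, and 173 ± 30.7 CPM in SI-pos, against 246 ± 93.3 CPM in SI-neg. Its gate log2 fold changes were -0.63 ± 0.22 (adjusted p = 0.051) in gallbladder and -0.32 ± 0.22 (adjusted p = 0.312) in small intestine. Hspa1a and Hspa1b, the stress-induced HSP70 pair, had log2 fold changes of -1.42 ± 0.59 (adjusted p = 0.0985) and -1.16 ± 0.57 (adjusted p = 0.154) in gallbladder and 0.22 ± 0.58 (adjusted p = 0.819) and 0.07 ± 0.56 (adjusted p = 0.942) in small intestine. Reads of the pair cannot be fully told apart, since 66.3% of the 50-base stretches of Hspa1a also occur elsewhere, mainly in Hspa1b. The HSP90 gene Hsp90aa1 had a log2 change of -0.79 ± 0.29 (adjusted p = 0.0635) and 0.05 ± 0.29 (adjusted p = 0.924) in gallbladder and small intestine, and 47.5% of its stretches occur elsewhere.

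Hsph1, an HSP110 co-chaperone of HSP70, had 282, 448 and 410 CPM in GB-pos 1 to 3, against 291, 384 and 388 CPM in GB-neg. In small intestine it had 101, 116 and 63.7 CPM in SI-pos, against 483, 150 and 240 CPM in SI-neg. SI-pos was thus the lowest group and overlapped no other. Hsph1 had a log2 change of -0.12 ± 0.35 (adjusted p = 0.83) in gallbladder, -1.45 ± 0.35 (adjusted p = 0.00866) in small intestine and 1.58 ± 0.35 (adjusted p = 0.00601) for tissue among IL-25+ cells, and its small intestine value was -0.94 without SI-neg 1. Hspe1, the mitochondrial chaperonin partner, had a log2 change of -1.04 ± 0.43 (adjusted p = 0.0874) in gallbladder and of -1.89 ± 0.44 (adjusted p = 0.0062) in small intestine, where it was called lower.

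Bag3, a co-chaperone of selective autophagy, was lower in IL-25+ cells of both tissues, with a log2 change of -1.31 ± 0.37 (adjusted p = 0.0179) in gallbladder and of -1.35 ± 0.37 (adjusted p = 0.0155) in small intestine. The gallbladder call of Bag3 ended without GB-pos 1 or 3 or GB-neg 3 (adjusted p = 0.0536 to 0.0714, with 0.000345 to 0.0714 over its alternatives), and its value was -2.0 without GB-pos 2. Its small intestine call ended without SI-pos 2 or SI-neg 1 (adjusted p = 0.0594 to 0.0646, with 0.00129 to 0.0646 over its alternatives). Dnajb1, the J-domain partner of HSP70, was lower in gallbladder IL-25+ cells, with a log2 change of -1.61 ± 0.41 (adjusted p = 0.0107), although its libraries overlapped, and of 0.06 ± 0.40 (adjusted p = 0.932) in small intestine. Bag2 had 4 reads in GB-pos and 2375 in GB-neg, a ratio of 0.00265 (interval 0.000722 to 0.0068, edgeR adjusted p = 0.013). The Bag2 call ended without GB-pos 2 or 3 (adjusted p = 0.053 to 0.0567, with 1.58e-05 to 0.0567 over its alternatives). Hspb1 was rare, with 5 reads in SI-pos against 121 in SI-neg, and passed none of the 5 tests.

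Over all 50 tested members, an unadjusted p under 0.05 was reached by 40 for the gallbladder gate, 32 for the small intestine gate, 22 for tissue among IL-25+ cells and 35 for tissue among IL-25- cells. Of all genes, 38.6% reached it for the gallbladder gate, 38.9% for the small intestine gate, 36.8% for tissue among IL-25+ cells and 36.3% for tissue among IL-25- cells.

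Other genes of the same pathways, in lists written from general knowledge, were set beside the members. Their counts are read against the shares of all genes, 14.4% lower and 12.4% higher in gallbladder IL-25+ cells, and 12.8% lower and 14.5% higher in small intestine IL-25+ cells. Of 20 genes upstream of immediate early transcription, 8 were lower and 2 higher in gallbladder IL-25+ cells, and 3 were lower and 1 higher in small intestine IL-25+ cells. Apart from the 8, these counts were near or below the shares of all genes. Egfr, the receptor that drives ERK signalling in epithelium, was lower in both, with a log2 change of -3.23 ± 0.54 (adjusted p = 0.000745) in gallbladder and -3.85 ± 0.56 (adjusted p = 0.000256) in small intestine. It had 11.6, 10.5 and 9.53 CPM in GB-pos, against 84.5, 92.7 and 78.7 CPM in GB-neg, and 7.15, 0.741 and 3.68 CPM in SI-pos, against 70.5, 62.3 and 47.3 CPM in SI-neg, without overlap in either tissue. The SRF co-activator Mrtfb was lower in small intestine IL-25+ cells, with a log2 change of -1.90 ± 0.25 (adjusted p = 0.00011), and the ERK gene Mapk3 was higher there, at 1.27 ± 0.17 (adjusted p = 0.000116). In gallbladder IL-25+ cells the kinase genes Map2k1 and Rps6ka1 were lower, with log2 fold changes of -1.73 ± 0.26 (adjusted p = 0.000283) and -1.53 ± 0.27 (adjusted p = 0.00113), and Rps6ka5, which encodes the histone kinase MSK1, was higher, at 3.80 ± 0.52 (adjusted p = 0.000149). Rps6ka3 was lower in small intestine IL-25+ cells, with a log2 change of -1.06 ± 0.29 (adjusted p = 0.0171), and this call ended without SI-pos 2 or 3 or SI-neg 3 (adjusted p = 0.0551 to 0.0814, with 0.00198 to 0.0814 over its alternatives).

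Of 32 further stimulus-response genes, 18 were lower and 2 higher in gallbladder IL-25+ cells and 12 were lower and 6 higher in small intestine IL-25+ cells, with medians of -2.70 and -0.85. Tnfaip3, the NF-kB brake A20, had 13.6, 18.6 and 14.9 CPM in GB-pos, against 119, 115 and 78 CPM in GB-neg, and 64.5, 78.9 and 66.3 CPM in SI-pos, against 14.6, 12 and 24.9 CPM in SI-neg. Like Zfp36 and Btg2 it was called in opposite directions, at -2.92 ± 0.27 (adjusted p = 5.82e-06) in gallbladder and 2.20 ± 0.26 (adjusted p = 4.9e-05) in small intestine. The EGF-family ligand Hbegf, the EGFR inhibitor Errfi1 and the thioredoxin regulator Txnip were lower in gallbladder IL-25+ cells, with log2 fold changes of -3.90 ± 0.41 (adjusted p = 1.94e-05), -2.71 ± 0.28 (adjusted p = 1.39e-05) and -1.77 ± 0.18 (adjusted p = 1.52e-05). In small intestine IL-25+ cells the polo-like kinase gene Plk2 and the phosphatase gene Dusp14 were higher, with log2 fold changes of 5.12 ± 0.32 (adjusted p = 2.51e-07) and 6.43 ± 0.79 (adjusted p = 6.13e-05), and the kinase gene Sgk1 was lower, at -3.59 ± 0.44 (adjusted p = 6.16e-05).

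Of 32 heat shock regulators and other chaperones, 7 were lower and 4 higher in gallbladder IL-25+ cells, and 4 were lower and 4 higher in small intestine IL-25+ cells. Apart from the 7, these counts were near the shares of all genes. Hsf2, a relative of the heat shock factor HSF1, was higher in IL-25+ cells, with a log2 change of 1.54 ± 0.36 (adjusted p = 0.00599) in gallbladder and 4.29 ± 0.40 (adjusted p = 6.27e-06) in small intestine. The HSP110 relative Hspa4l was likewise higher, with a log2 change of 1.66 ± 0.19 (adjusted p = 3.52e-05) and 2.08 ± 0.19 (adjusted p = 6.27e-06), and the mitochondrial chaperonin Hspd1 was lower, at -1.46 ± 0.28 (adjusted p = 0.0018) and -2.02 ± 0.28 (adjusted p = 0.000196). Hspa9, the mitochondrial HSP70, was lower in gallbladder IL-25+ cells, with a log2 change of -1.71 ± 0.31 (adjusted p = 0.00111), and Hspa2 was higher in small intestine IL-25+ cells, at 4.43 ± 0.56 (adjusted p = 7.5e-05). Of 16 endoplasmic reticulum stress genes, 9 were lower and 1 higher in gallbladder IL-25+ cells. Those lower included the chaperones Hspa5 (-1.65, adjusted p = 0.000706), Calr (-1.20, adjusted p = 0.0011) and Canx (-1.61, adjusted p = 0.000223) and the enzyme gene Asns (-3.17, adjusted p = 0.000126). In small intestine IL-25+ cells 3 were lower, namely Pdia4 (-1.66, adjusted p = 0.000538), Canx (-1.04, adjusted p = 0.00445) and Asns (-1.34, adjusted p = 0.0236). The Asns call ended without SI-pos 3 or SI-neg 1 (adjusted p = 0.0983 to 0.106, with 0.00143 to 0.106 over its alternatives).

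Markers of other cell types differed between the gates, in both directions. In gallbladder the 9 gallbladder epithelium markers summed to 2918 to 3358 CPM in GB-pos, against 11703 to 13766 CPM in GB-neg, and the 7 goblet markers to 57.8 to 124 CPM, against 564 to 864 CPM. In small intestine the goblet markers summed to 113 to 463 CPM in SI-pos, against 4590 to 48624 CPM in SI-neg. The 8 enteroendocrine markers summed there to 17.5 to 336 CPM, against 5375 to 9153 CPM in the same order, and the 5 Paneth markers to 26.2 to 117 CPM, against 955 to 4635 CPM. In gallbladder the Paneth markers summed to 13 to 44.8 CPM in GB-pos, against 92.2 to 315 CPM in GB-neg, the enteroendocrine markers to 12.6 to 28 CPM, against 2.98 to 367 CPM, and the enterocyte markers to 1201 to 1456 CPM, against 313 to 1694 CPM. The 12 enterocyte markers summed to 6850 to 8596 CPM in SI-pos, against 18583 to 23284 CPM in SI-neg. The sum of the 5 epithelial markers was instead higher in IL-25+ cells. It was 5698 to 6796 CPM in GB-pos, against 2380 to 4303 CPM in GB-neg. In small intestine it was 12077 to 15244 CPM in SI-pos, against 2428 to 3278 CPM in SI-neg. Of these 5 markers, 2 were called higher in gallbladder IL-25+ cells and 1 was fitted lower there, and 4 were called higher in small intestine IL-25+ cells. The 7 B and plasma cell markers summed to 31.8 to 42.9 CPM in GB-pos, against 1.15 to 1.37 CPM in GB-neg, with Cd79a, Ms4a1 and Jchain at 0 in both. These B cell sums were 0.573 to 5.88 CPM in SI-pos, against 0.672 to 4.47 CPM in SI-neg. The 10 stroma and endothelium markers summed to at most 6.31 CPM in any library. The 12 myeloid markers summed to 7.69 to 30.7 CPM in GB-pos, against 48.6 to 254 CPM in GB-neg, with S100a8 at 0 in both, and to 23.4 to 27.9 CPM in SI-pos, against 17.7 to 44.6 CPM in SI-neg. In gallbladder the 12 T cell markers summed to 0.704 to 2.1 CPM, against 0.0572 to 1.76 CPM, with Trac and Cd8b1 at 0 in both. T cell markers summed to 4.11 to 56.2 CPM in SI-pos, against 5.18 to 54.8 CPM in SI-neg. The part of these differences, or of the mitochondrial shares, in the results was not tested. With the mitochondrial genes removed from the library sizes, the gallbladder gate counts were still 33 lower and 2 higher, and the small intestine counts 19 lower and 7 higher.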

How the data were processed

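Read counts per Ensembl gene were taken as the authors deposited them. Per the submitters' processing notes, reads were aligned with STAR 2.7.2b to GRCm38, and DESeq2 1.26 is listed. The read counter, its strand setting and the annotation release are not given in the sources used here. Per the labels' protocols, bead-captured mRNA was amplified as cDNA and made into Nextera XT libraries, which carry no strand, for 50-base single-end reads, so a gene and an antisense partner cannot be told apart. Another 11 columns that fit no sample label stayed unused. Symbols and exon lengths came from GENCODE M21, which matched 42548 of 43432 genes.

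R 4.3.3 with edgeR 4.0.16 was used, and filterByExpr (minimum count 10) left 16636 genes. TMM scaling, 1 robust quasi-likelihood fit over all 12 libraries with group as the factor, two-sided F tests and Benjamini-Hochberg adjustment per comparison were used, with a threshold of 0.05. The ± after a log2 fold change is its standard error, the estimate divided by the square root of F, and ± after a CPM mean is the SD, with n = 3 libraries per group. CPM used library totals without scaling. Intervals of count ratios are exact binomial at 95% and cover counting error only. Where a library holds 0 reads, up to 3 counts are allowed, or 0.0463 to 0.127 CPM. Replicate libraries were checked to be distinct.

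Every member is counted. Values in each library are given for the 8 members with the lowest adjusted p per gate comparison, the 6 lowest per tissue comparison, all interaction calls, members called in opposite directions and the 3 most abundant per kb. Of other lists, the 4 called genes with the lowest adjusted p per gate comparison are named. The values in each library of Hsph1, Egfr and Tnfaip3 and the plots of Myc, Hspa8 and Hsph1 were chosen after their values were seen. Members, lists and tests were chosen with earlier results of these data known. A 50-base stretch is shared if it occurs in the exons of another gene on either strand. Such stretches also make up 50.1% of Hspb1, 39.4% of Hspa8, 22.8% of Hspe1, 20.5% of Dusp5, 15.6% of Gadd45a, 5.8% each of Jun and Junb, 4.2% of Zfp36, 3.3% of Csrnp1, 2.7% of Bag2 and 2.5% of Btg1, whose counts are uncertain to that extent.

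The 22 alternatives were RLE scaling, DESeq2 1.42.0, limma-voom (limma 3.58.1) with quality weights, no filter, a filter of 5 CPM in 3 libraries, 2 replicate blocks, the compared groups alone, each library left out, GB-neg 1 and SI-neg 3 left out together, and mitochondrial genes removed. The edgeR fit was also run on simulated counts in which chosen genes were changed in GB-pos only. The outcome is not given here, and the data differ in that genes also changed between the other groups. Figures were drawn with matplotlib 3.10.9.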

Additional observations from a re-analysis of the deposited data

Results flagged for a closer look

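The gate difference differed between gallbladder and small intestine, by the interaction test itself, for 14 members. The value is the log2 fold change of IL-25+ over IL-25- cells in gallbladder minus that in small intestine, from edgeR's quasi-likelihood test. It was lower in gallbladder for Gadd45b (-4.20), Zfp36 (-3.28), Btg2 (-2.93), Sik1 (-2.92), Jund (-2.82), Gadd45g (-2.63), Junb (-2.49), Csrnp1 (-2.44), Ier3 (-2.30), Mcl1 (-2.29), Klf6 (-1.86), Nfkbia (-1.68) and Fosl2 (-1.37), and higher for Egr1 (1.34). For Zfp36, Btg2, Mcl1 and Csrnp1 the gate difference was called in opposite directions in the 2 tissues. For Sik1 it was called higher in both and was larger in small intestine, and for Fosl2 and Egr1 it was called lower in both. Not all of these calls held. The small intestine call of Mcl1 was lost in 13 of 22 alternatives, among them RLE scaling, DESeq2 and mitochondrial genes removed. Csrnp1 lost its gallbladder call in 5 of 22 and its small intestine call in 6. The small intestine calls of Fosl2 and Zfp36 were lost in 3 and 1 of 22. Among the interactions, Egr1 was lost in 10 of 21 alternatives, Nfkbia in 8 and Fosl2 in 1.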

How the results depend on the processing

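No called value changed sign under any alternative that gave it a value. The block nested in tissue gives no tissue comparison, the compared groups alone give no interaction and no small intestine value for Egr3, and the stricter filter removes Klf2. Counts of members called lower for the gallbladder gate (33), lower for the small intestine gate (19), higher for tissue among IL-25+ (15) and IL-25- cells (30) and lower in the interaction (13) stayed within 1.5 times of these values. The small intestine count of higher members (8) was 5 to 9 when single libraries were left out and 5 without GB-neg 1 and SI-neg 3. The gallbladder count of higher members (2) was 1 to 3 with single libraries left out, 1 with no filter, 1 without that pair, and 3 with limma-voom. Members lower in gallbladder than in small intestine were 1 to 3 among IL-25+ cells with single libraries left out, against 1. Among IL-25- cells they were 0 to 2, against 2, with 4 by limma-voom and 1 each with no filter, with a replicate block and with the compared groups alone. The interaction count of higher members (1) was 0 to 1 with single libraries left out, 3 with DESeq2, 3 with limma-voom, 0 with the replicate block and 2 with the block nested in tissue. RLE scaling shifted the median of all genes by -0.123 for the small intestine gate, 0.119 for tissue among IL-25+ cells and 0.164 for the interaction, and it left 21 lower and 7 higher members for the small intestine gate and 33 and 2 for the gallbladder gate.

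Replicate numbers were not shown to pair the libraries. Deviations of same-numbered gates correlated at -0.028 to 0.026 in small intestine and 0.019 to 0.162 in gallbladder, and 1 of 6 and 4 of 6 libraries correlated best with their own number. With the replicate block, the gallbladder gate gave 29 lower and 2 higher members and the small intestine gate 18 and 7. With the block nested in tissue these were 32 and 2, and 20 and 9. Of the 10 heat shock genes, DESeq2 called 5 and limma-voom 3 for the gallbladder gate (edgeR 3), and DESeq2 called 4 and limma-voom 5 for the small intestine gate (edgeR 3). All-gene calls moved as well over the alternatives other than single libraries left out. For the gallbladder gate 1725 to 3182 were lower and 1720 to 2675 higher. For the small intestine gate 1628 to 3544 were lower and 1870 to 3288 higher. The shares of all genes by DESeq2 and limma-voom are not given here, so these heat shock counts cannot be set against them. Low counts limit Egr3, Klf2, Bag2, Hspb1 and Dusp2.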
